A study of Mus musculus with 72 samples.

Results

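Choline that is not used for phospholipids is oxidised to glycine in a short chain of enzymes, and the transcripts of 5 of these enzymes were followed by diet and circadian time in mouse liver and in the suprachiasmatic nucleus (SCN), the brain's central circadian clock. The 5 genes were found by their symbols: Chdh, Aldh7a1, Dmgdh, Sardh and Pipox. All 5 are among the 22823 genes of the liver count table, and 3 of them (Aldh7a1, Sardh and Pipox) are among the 15759 genes of the SCN count table, out of 24091 genes in either table. Chdh and Dmgdh were not analysed in the SCN.

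C57BL/6J mice aged 8 to 12 weeks had free access to a methionine- and choline-deficient (MCD) diet with the code TD.220158 or to a control of equal calories with the code TD.220157. They were kept singly in a light-dark cycle for 10 days and in constant darkness on day 11, which is given as day 11 of the diet. Tissue was taken on that day every 4 h at circadian times (CT) 0, 4, 8, 12, 16 and 20. A group is 1 tissue on 1 diet at 1 time; the 24 groups hold 3 RNA-seq libraries of polyadenylated RNA each, 2 from males (numbers 1 and 2) and 1 from a female (number 3), so that each tissue has 36 libraries, 18 per diet. The growth protocol speaks of male mice only, whereas the sample labels and the design text name a female mouse in every group. No genetic change separates the groups, and all of the mice were killed under dim red light in constant darkness, controls included. The liver was a piece of the left lobe, and the SCN was cut by laser from stained brain sections. Both are bulk tissue, in which fewer cells of a type and less RNA per cell cannot be told apart. The totals ran from 52.6 to 86.7 M counts per library in liver and from 23.3 to 79.8 M in the SCN (M, 1e+06).

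In the pathway, choline dehydrogenase (Chdh) at the inner mitochondrial membrane oxidises choline to betaine aldehyde, and an aldehyde dehydrogenase, Aldh7a1 among others, turns that into betaine. Betaine gives a methyl group to homocysteine and becomes dimethylglycine, which dimethylglycine dehydrogenase (Dmgdh) and sarcosine dehydrogenase (Sardh) strip of its remaining methyl groups in the mitochondrial matrix. Both are flavoproteins that pass the released carbon to tetrahydrofolate and their electrons to the electron transfer flavoprotein. Pipox is a peroxisomal oxidase that acts on sarcosine and on pipecolate, an intermediate of lysine breakdown, and Aldh7a1 also has another substrate in the lysine pathway. Liver and kidney are the organs best known for this route.

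On the MCD diet, Aldh7a1 and Pipox transcripts fell in liver at all 6 circadian times, Aldh7a1 by 47.5% and Pipox by 67.5% on average. Sardh fell by 32.7%. Chdh fell by 14.7%, a difference whose sign depended on the scaling of the libraries. Dmgdh was lower by 16.3% and did not pass the test. In the SCN none of the 3 genes measured passed the test for diet. The tests were edgeR's quasi-likelihood F test with Benjamini-Hochberg adjustment over all genes tested, and a gene is called where the adjusted p is below 0.05. Levels are CPM, counts per 1e+06 counts of the library, after TMM normalisation, a scaling that assumes most genes do not change, and a diet effect is MCD minus control as a log2 difference, averaged over the 6 times.

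These calls are read against a liver in which 46.6% of the 20249 genes tested were called for diet, 25.3% higher and 21.2% lower on MCD (5130 and 4296 genes). The split depends on the scaling: with library totals alone, 10633 genes were called higher and 1540 lower, and the median gene moved from a log2 difference of 0.02 to 0.27. The TMM factors were 0.917 ± 0.074 on control and 1.10 ± 0.079 on MCD (SD, n = 18 libraries each). Changes are therefore given relative to the typical gene, and values on library totals are given beside results whose call or sign they change. Counts of times or libraries without overlap between the diets are given for the 5 genes without a share over all genes. They do not say how unusual such a separation is. One liver library, control CT8 a, stands apart from the other controls and is named beside the results of the 5 genes whose call it moves. It and control CT8 b share 1 column header in the count table, so their numbers within the pair cannot be told apart.

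Per kilobase of exon, Sardh and Dmgdh had the highest levels of the 5 in control liver, 181 ± 37.1 and 172 ± 33.6 CPM per kb (SD, n = 18), which did not differ beyond their spread. Pipox followed at 103 ± 14.7 CPM per kb, Aldh7a1 at 68.1 ± 9.69 CPM per kb, and Chdh was lowest at 39.0 ± 4.78 CPM per kb. On MCD the order of levels became Dmgdh 144 ± 38.9, Sardh 122 ± 27.4, Aldh7a1 35.7 ± 4.86, Chdh 33.9 ± 8.37 and Pipox 33.9 ± 7.79 CPM per kb. Pipox thus went from the middle of the order to its lower end, where it lay within the spread of Chdh and Aldh7a1. These values are levels per length, from a gene annotation of another build than the counts (GENCODE M21 on GRCm38).

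Chdh, the first step, lies at chr14:30009023-30040527 on the plus strand of GRCm38. Its liver level over the 18 control libraries had a lowest value of 192 CPM, a median of 241 CPM and a highest value of 332 CPM, and over the 18 MCD libraries a lowest of 138, a median of 199 and a highest of 296 CPM. The diets overlapped widely: 8 of the 18 MCD libraries lay below the lowest control. All 3 MCD libraries lay below all 3 controls at 2 of 6 times, CT12 and CT16, and on library totals at 1 time. The average diet effect was -0.23 ± 0.07 (log2 ± SE, 95% interval -0.37 to -0.08, edgeR adjusted p = 0.00897). On library totals it was 0.02 ± 0.08 (adjusted p = 0.845), so the sign of the Chdh difference depends on the scaling. The control library CT8 a had the highest Chdh level of all 36, and without it the effect was -0.21.

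The Chdh differences at single times ran from 0.24 to -0.67, and the test that the 6 are equal did not call the gene (adjusted p = 0.173). At CT4 the MCD libraries read 236, 256 and 296 CPM, level with or above the controls at 236, 225 and 206 CPM. At CT16 the MCD libraries read 160, 149 and 163 CPM and all lay below the controls at 239, 268 and 242 CPM. At CT20 the 2 MCD males read 138 and 145 CPM and the MCD female 238 CPM, beside controls at 265 and 249 CPM (males) and 215 CPM (female). CT16 was the 1 time at which the diet effect was called, -0.67 ± 0.17 (adjusted p = 0.0114). Without control CT16 number 2 its adjusted p was 0.0506, and on library totals the CT16 difference was -0.40 (adjusted p = 0.149). The CT16 call was lost in 4 of 47 alternatives, these included. At CT20 the difference was -0.49 ± 0.17 (adjusted p = 0.0628), and without the MCD female CT20 number 3 the adjusted p was 0.00413. DESeq2 (adjusted p = 0.0283) and limma-voom (adjusted p = 0.0409) called it, as did edgeR without control CT8 a, control CT20 number 3 or MCD CT0 number 3. On library totals the CT4 difference was 0.54 and called (adjusted p = 0.042).

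Aldh7a1, the aldehyde dehydrogenase, lies at chr18:56509687-56572951 on the minus strand of GRCm38. The control libraries ran from 272 through a median of 375 to 420.1 CPM, and the MCD libraries from 148 through a median of 181 to 230.2 CPM. Every MCD library was below every control library. The average diet effect was -0.93 ± 0.04 (95% interval -1.02 to -0.84, adjusted p = 2.52e-14). On library totals it was -0.67 and still called, and the groups of 3 did not overlap at 5 of the 6 times rather than at all 6. The effect at single times ran from -1.09 at CT4 to -0.80 at CT8, and without control CT8 a the CT8 effect was -0.94.

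**Figure D1:**
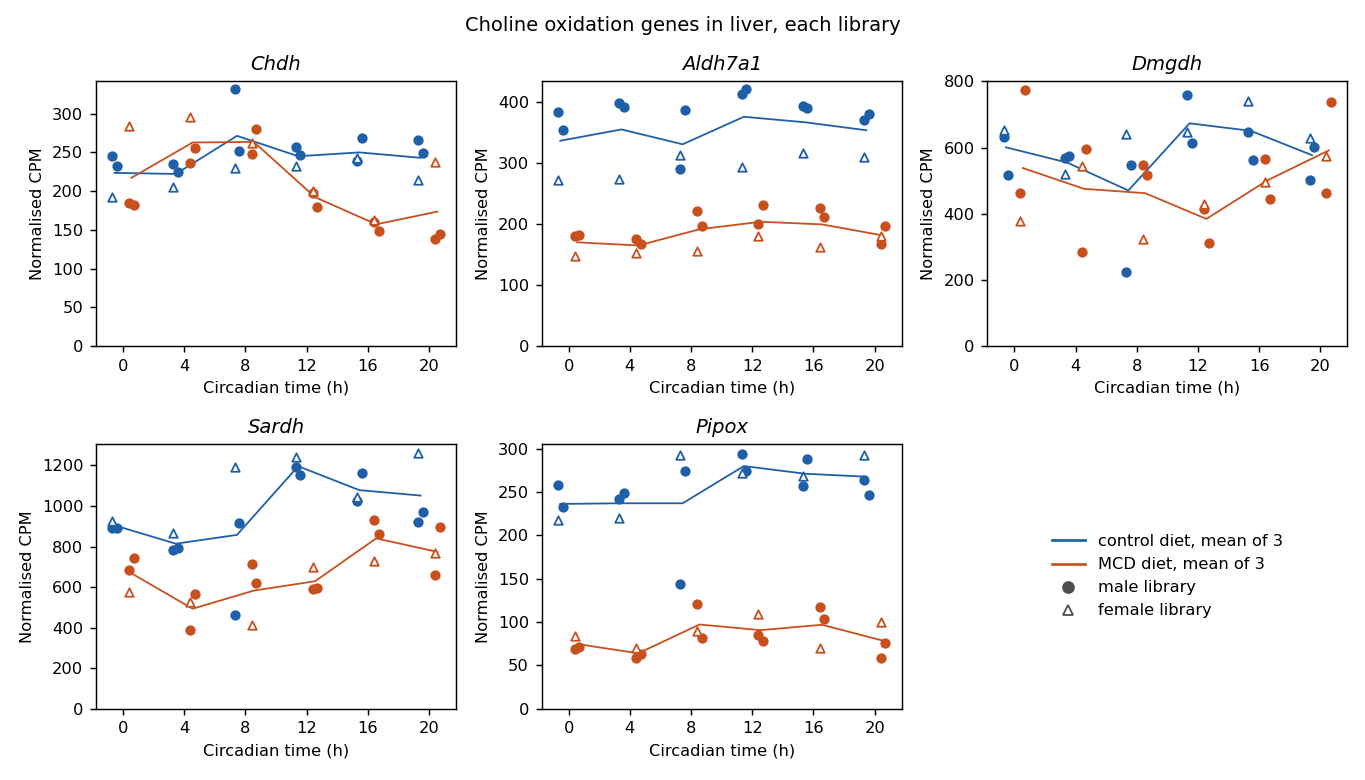
Liver levels of the 5 genes (y axes, TMM-normalised CPM, linear, each from 0) against circadian time (x axis, hours), with 1 point per library, colour for diet and marker shape for sex; lines join the means of the 3 libraries. The MCD points of Aldh7a1 and Pipox all lie below the control points, while those of Dmgdh overlap with them at 5 of 6 times and the MCD points of Chdh lie below the control points at CT12 and CT16 and above them at CT4.

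Dmgdh, which makes sarcosine, lies at chr13:93674433-93752833 on the plus strand of GRCm38. Its level ran from 223 through a median of 608 to 758 CPM on control and from 286 through a median of 480 to 773 CPM on MCD. No MCD library was below the lowest control, control CT8 a at 223 CPM, and no control was above the highest MCD library. Without control CT8 a the lowest control was 502 CPM, and 10 of the 18 MCD libraries lay below it. The average difference was -0.26 ± 0.12 (95% interval -0.51 to -0.01, adjusted p = 0.0865) and was not called. Without control CT8 a the difference was -0.33 and called (adjusted p = 0.00977). It was also called without MCD CT0 number 2 (adjusted p = 0.0225), which had the highest MCD level, MCD CT4 number 2 (adjusted p = 0.0477) or MCD CT20 number 2 (adjusted p = 0.0495). On library totals the difference was close to 0 (adjusted p = 1).

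At single times, no Dmgdh difference was called. CT12 was the 1 time at which the groups separated, with controls at 758, 615 and 647 CPM and MCD libraries at 413, 310.3 and 429.8 CPM. That difference was -0.81 ± 0.30 (adjusted p = 0.0662), and it was called by DESeq2 (adjusted p = 0.0309) and by edgeR without control CT8 a (adjusted p = 0.0217), MCD CT0 number 2 (0.0471) or MCD CT4 number 1 (0.043). At CT8 and CT20 the differences were -0.02 and 0.04. The CT8 value includes control CT8 a at 223 CPM, beside controls at 641 and 547 CPM and MCD libraries at 547, 516 and 323 CPM. Over 47 alternatives the CT8 difference ran from -0.49 to 0.46, so an absence of a difference at CT8 was not shown.

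Sardh, which makes glycine from sarcosine, lies at chr2:27188393-27248337 on the minus strand of GRCm38. Its level ran from 462 through a median of 948 to 1263 CPM on control and from 388 through a median of 671 to 931 CPM on MCD. All 3 MCD libraries lay below all 3 controls at 5 of 6 times; on library totals this held at 3 times. The average diet effect was -0.57 ± 0.09 (95% interval -0.76 to -0.38, adjusted p = 1.17e-05), -0.31 on library totals and still called. The exception was CT8, where control CT8 a read 462 CPM beside controls at 917 and 1193 CPM and MCD libraries at 413, 622 and 713 CPM. Without that library the CT8 difference went from -0.54 (adjusted p = 0.285) to -0.86 (adjusted p = 0.00588).

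Pipox, the peroxisomal oxidase, lies at chr11:77880615-77894096 on the minus strand of GRCm38. It had the largest diet effect of the 5. Its level ran from 144 through a median of 261 to 294 CPM on control and from 59.0 through a median of 80.1 to 120.4 CPM on MCD, with no overlap in any library. The lowest control was again CT8 a; the other 17 controls were at 218 CPM or more. The average diet effect was -1.62 ± 0.09 (95% interval -1.80 to -1.44, adjusted p = 2.42e-13) and -1.36 on library totals. It ran from -1.28 at CT8 to -1.89 at CT4, and without control CT8 a the CT8 effect was -1.54.

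Of the 30 tests of a gene at a single time, 15 were called, all of them lower on MCD. Aldh7a1 and Pipox accounted for 12 of these, Sardh for 2 (CT4, -0.72, and CT12, -0.93) and Chdh for 1. The share of all liver genes called lower was 6.02% at CT0, 8.71% at CT4, 0.751% at CT8, 7.13% at CT12, 5.99% at CT16 and 5.6% at CT20. The Sardh call at CT4 was lost without any of control CT4 numbers 1, 2 and 3 or without MCD CT4 number 1, with an adjusted p of up to 0.142, and on library totals (adjusted p = 0.0586). Leaving out all libraries of 1 replicate number ended the Sardh call at CT4 (each number) and at CT12 (number 1 or 2), the Aldh7a1 and Pipox calls at CT8 and CT12 (number 2) and the Pipox call at CT8 also for number 3. A test that the 6 diet effects of a gene are equal called none of the 5, against 0.909% of all genes. By edgeR, Chdh had an adjusted p of 0.173 and was the 1 gene of the 5 under 0.05 before adjustment (0.00974). DESeq2 called it (adjusted p = 0.0268), as did edgeR without MCD CT20 number 3 (adjusted p = 0.0416), and limma-voom called none.

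**Figure D2:**
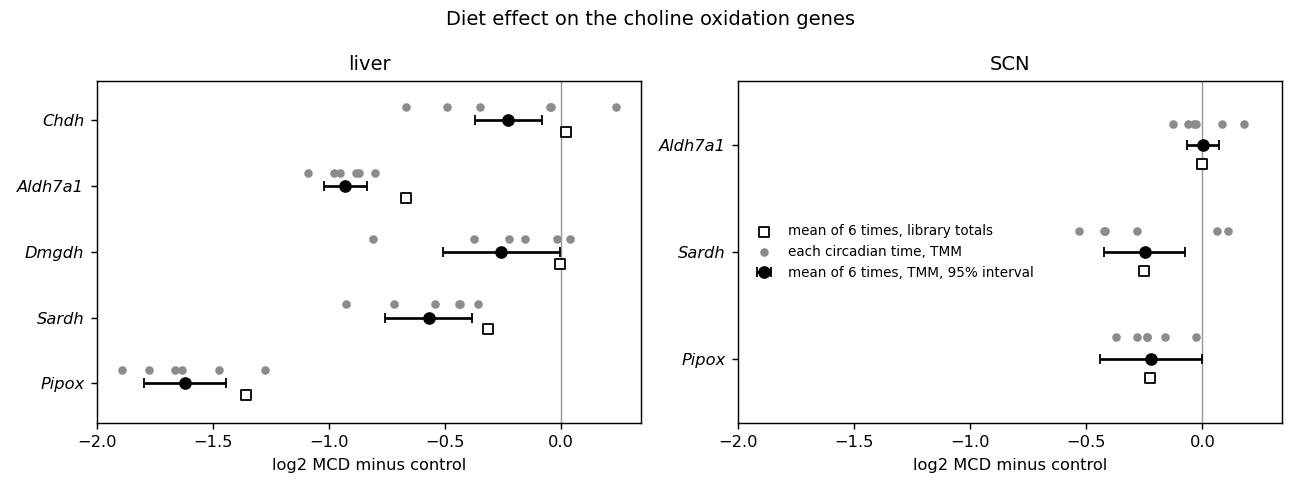
Diet effect (x axis, MCD minus control, log2) of each gene (y axis) in liver and SCN: black points and bars are the average over the 6 times with its 95% interval, grey points the 6 single times, and open squares the average on library totals. In liver the grey points of Aldh7a1 and Pipox lie between -0.80 and -1.89, and the open square of Chdh lies on the other side of 0 from its black point.

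The rhythm test asked for a 24 h cosine and sine component in the 6 time means. On the control diet none of the 5 genes was called in liver, against 17.8% of all genes; the fitted peak-to-trough ranges were 0.13 to 0.51 on the log2 scale, 1 gene had an unadjusted p below 0.05, and DESeq2 and limma-voom called none. Sardh had the widest range, 0.51 with a fitted peak at 15.5 h (adjusted p = 0.12), and was called without control CT8 a (adjusted p = 0.0493) or without control CT8 number 3 (adjusted p = 0.0308).

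On the MCD diet 3 of the 5 genes were called rhythmic in liver, against 28.2% of all genes. Chdh had a range of 0.79 log2, a 1.73-fold difference between peak and trough, with a fitted peak at 5.24 h (adjusted p = 4.51e-04). Sardh had a 1.60-fold range with a fitted peak at 17.7 h (adjusted p = 0.0177), and Aldh7a1 a 1.24-fold range with a fitted peak at 13.5 h (adjusted p = 0.0297). Chdh on MCD was thus fitted as highest when Sardh was near its lowest. The Sardh call was lost without MCD CT4 number 1, CT8 number 3, CT16 number 1 or CT20 number 2 (adjusted p of up to 0.0592), and the Aldh7a1 call without any of 9 single MCD libraries (CT0 numbers 1, 2 and 3, CT4 numbers 1 and 2, CT12 numbers 2 and 3 and CT16 numbers 1 and 2; adjusted p of up to 0.0825). Pipox had a range of 0.52 (adjusted p = 0.0573) and Dmgdh 0.49 (adjusted p = 0.295); Pipox was called without control CT8 a (adjusted p = 0.0182), MCD CT16 number 3 or MCD CT20 number 3, by DESeq2 (adjusted p = 0.0364) and on library totals (adjusted p = 0.0219).

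The difference between the rhythms on the 2 diets was called for Chdh alone of the 5, with a component of 0.86 log2 (adjusted p = 0.0282), against 4.87% of all genes. It was lost on library totals (adjusted p = 0.11) and without control CT4 number 3, control CT16 number 2, MCD CT4 number 3 or MCD CT16 number 2, with an adjusted p of up to 0.0611. For the other 4 genes the adjusted p ran from 0.653 to 0.715, so a different rhythm was not shown for them.

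Sex entered every group as 1 female beside 2 males. Aldh7a1 was lower in female liver by 0.31 ± 0.05 log2 (adjusted p = 5.63e-05), and 4.27% of all genes were called lower in females. On control the 12 male libraries had 381 ± 33.3 CPM and the 6 female libraries 296 ± 19.6 CPM, and on MCD 196 ± 22.4 and 163 ± 14.2 CPM (SD). The other 4 genes had adjusted p-values of 0.668 to 0.919 for sex.

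The diet effect on Chdh differed between the sexes, and 0.914% of all genes had a diet effect called higher in females than in males. On control the males read 254 ± 27.8 CPM (n = 12) and the females 219 ± 18.7 CPM (n = 6), and on MCD the males 196 ± 47.8 CPM and the females 241 ± 51.3 CPM (SD). The Chdh mean was thus lower on MCD in males and higher on MCD in females. The diet effect in females minus that in males was 0.52 ± 0.11 log2 (95% interval 0.29 to 0.75, adjusted p = 0.0122), and leaving out each of the 36 libraries in turn kept the adjusted p between 0.00534 and 0.0362. On library totals it was 0.51 (adjusted p = 0.0586), and without the number 1 or the number 2 males, 0.50 and 0.55 (adjusted p = 0.2 and 0.267). Among males alone the Chdh diet effect was -0.42 (adjusted p = 1.8e-05). The corresponding differences for Aldh7a1, Dmgdh, Sardh and Pipox were 0.10, -0.35, -0.39 and 0.07, none called.

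In the SCN, Aldh7a1 was the most abundant of the 3 genes, at 84.5 ± 8.20 CPM on control and 84.8 ± 8.95 CPM on MCD (SD, n = 18). Sardh had 12.5 ± 2.44 and 10.6 ± 1.95 CPM, and Pipox 5.81 ± 2.06 and 5.05 ± 2.02 CPM. Pipox rested on 124 to 579 counts per library. Per kilobase these were 16.3, 2.31 and 2.35 CPM per kb on control, so that Aldh7a1 led in the SCN while in liver only Chdh was lower on control, and Sardh and Pipox were level within their spread.

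No diet effect was called for the 3 genes in the SCN, where 0.0635% of 15759 genes (10 genes) were called at all. The effect was 0.00 ± 0.03 for Aldh7a1 (95% interval -0.07 to 0.07). For Sardh it was -0.25 ± 0.09 (95% interval -0.42 to -0.07, edgeR adjusted p = 0.619). For Pipox it was -0.22 ± 0.11 (95% interval from -0.44 to just below 0, edgeR adjusted p = 1). Sardh and Pipox had an unadjusted p below 0.05, and DESeq2 and limma-voom called none of the 3. All 3 controls lay above all 3 MCD libraries at 2 of 6 times for Pipox, at 1 time for Sardh and at 0 for Aldh7a1 (1 on library totals). The interval for Aldh7a1 holds a change of at most 0.07 log2 in either direction, while those of Sardh and Pipox reach -0.42 and -0.44.

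Pipox was called rhythmic in the SCN on both diets. The call was lost in 2 of 46 alternatives on control and in 1 of 46 on MCD, and by leaving out no single library. On control the libraries read 6.18, 8.30 and 12.0 CPM at CT4 and 4.79, 2.43 and 3.57 CPM at CT12. On MCD they read 4.77, 6.20 and 11.0 CPM at CT4 and 2.99, 2.31 and 4.01 CPM at CT12. Every CT4 library was above every CT12 library of its diet. The fitted range was 2.01-fold with a peak at 0.96 h on control (adjusted p = 0.00476) and 2.18-fold with a peak at 0.08 h on MCD (adjusted p = 0.00152), against 15.1% and 16.1% of all SCN genes called rhythmic on the 2 diets. In each diet the CT4 female had the highest Pipox level of the 18 libraries. Summed markers of ependyma, the ciliated lining of the ventricle beside the SCN, also had their highest mean at CT4 and their lowest at CT12. These means were 231 CPM at CT4 (149 to 299 over 6 libraries, the 2 females at 252 and 299) and 143 CPM at CT12 (114 to 191). The highest control sum was 290 CPM, above that of the CT4 control female. At CT0, CT8, CT16 and CT20 the ependyma means were 184, 183, 145 and 168 CPM. The Pipox means over both diets at these times were 6.46, 4.18, 4.67 and 5.84 CPM. Hepatocyte markers, of which 2 of 7 are listed in the SCN, had means of 9.99, 4.30 and 12.5 CPM at CT4, CT12 and CT20, and the CT4 females held the highest sum of each diet, 27.3 and 17.6 CPM. Stellate cell markers had 59.6, 50.6 and 75.4 CPM and cholangiocyte markers 41.3, 33.9 and 52.1 CPM at CT4, CT12 and CT20. Pipox had means over both diets of 8.08, 3.35 and 5.84 CPM at the same times. SCN neuron markers had 3373, 2689 and 2044 CPM. The part of these markers in the result was not tested.

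Aldh7a1 in the SCN was also called rhythmic, with a 1.18-fold range and a fitted peak at 20.5 h on control (adjusted p = 0.0404) and a 1.26-fold range with a peak at 17.9 h on MCD (adjusted p = 0.00336). Over both diets its mean level was lowest at CT8, 76.2 CPM, and highest at CT16, 94.8 CPM. The control call was lost without any of 13 of the 18 control libraries, with an adjusted p of up to 0.159 without SCN control CT8 a; the 5 others were CT4 numbers 1 and 2, CT8 b, CT16 number 1 and CT20 number 3. Sardh was not called on either diet. A different rhythm on the 2 diets was called for none of the 3 genes (0 also at an unadjusted p below 0.05, and by DESeq2, which gave no adjusted p for Pipox, and by limma-voom), against 0.0127% of all genes, and a sex difference for none by edgeR, DESeq2 or limma-voom (2 at an unadjusted p below 0.05), against 9.89%.

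**Figure D3:**
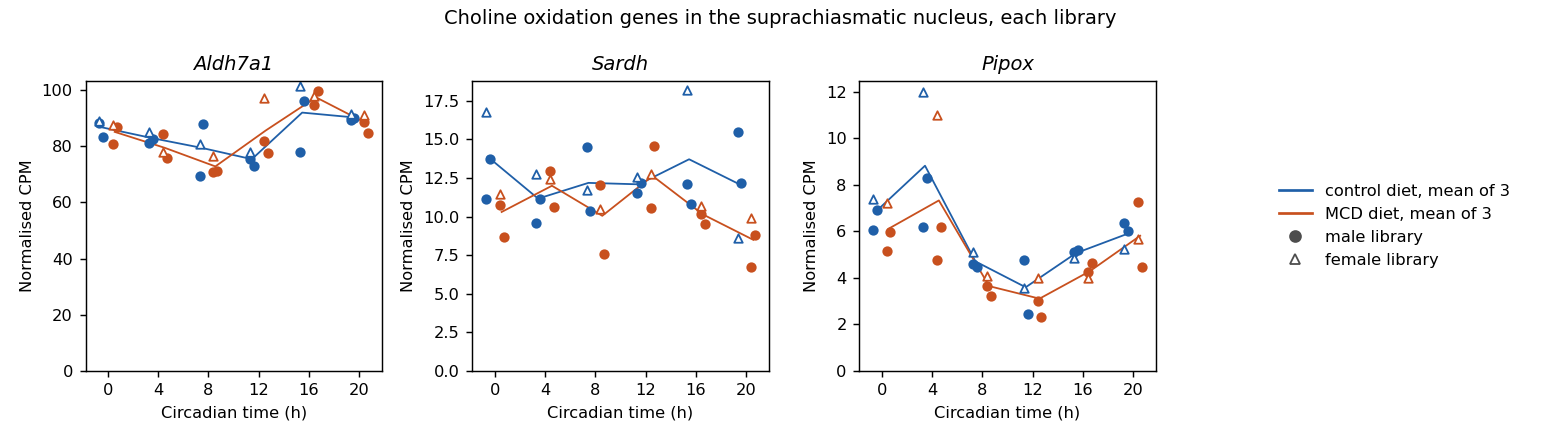
SCN levels of Aldh7a1, Sardh and Pipox (y axes, TMM-normalised CPM, linear, each from 0) against circadian time (x axis, hours), 1 point per library, colour for diet and marker shape for sex, lines for means of 3 libraries. Pipox is high at CT4 and low at CT12 on both diets, with the CT4 female highest in each, and over the 18 libraries of each diet the diets overlap in all 3 genes.

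The tissues were compared in a fit of all 72 libraries over the 14491 genes that both tables hold and that passed the count filter. On control, liver levels exceeded SCN levels 8.93-fold for Aldh7a1, 92.8-fold for Pipox and 157-fold for Sardh, all called, and 44.1% of genes were called higher in liver (6388 genes, with 6713 lower; 3952 and 9228 on totals over the genes of this fit). These folds come from 1 scaling over both tissues and depend on it: on totals over the genes of this fit the differences were 2.45, 5.82 and 6.58 log2 in place of 3.16, 6.54 and 7.29. With each tissue scaled on its own, as for the levels above, the ratio of the control means was 4.17-fold for Aldh7a1, 43.8-fold for Pipox and 78.5-fold for Sardh. The diet effect was more negative in liver than in the SCN for all 3, with a difference of -0.94 ± 0.05 log2 for Aldh7a1 (adjusted p = 1.33e-18), -1.40 ± 0.13 for Pipox (adjusted p = 4.19e-12) and -0.33 ± 0.12 for Sardh (adjusted p = 0.0352). For 15.8% of genes such a difference was called in this direction (2288 genes, and 2737 in the other; 1042 and 5098 on those totals). The Sardh difference was lost on those totals (-0.17, adjusted p = 0.212) and without any of 12 of the 72 libraries (adjusted p of up to 0.0643): in liver control CT8 and CT20 number 3, MCD CT0, CT8 and CT16 number 3 and MCD CT4 number 1, and in the SCN control CT0 number 1, CT16 number 2 and CT20 number 3 and MCD CT4 number 1, CT8 number 1 and CT12 number 2. It was also lost without any 1 replicate number (adjusted p = 0.166, 0.102 and 0.288 without numbers 1, 2 and 3). Without liver control CT8 a it was -0.38 (adjusted p = 0.00489). Which liver and SCN libraries come from 1 mouse is not given, so the tissues were treated as independent.

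Beyond diet, time and sex, the genes of liver did not all vary together. Over the 36 libraries the residuals of Dmgdh and Sardh, the 2 mitochondrial demethylating enzymes, had a Pearson r of 0.85 (adjusted p = 9.5e-04 over 10 pairs, 100000 permutations within groups, two-sided) and a Spearman rho of 0.73 (adjusted p = 0.00515). Without the 2 libraries farthest from the median r was 0.77. Aldh7a1 and Pipox had r = 0.82 (permutation adjusted p = 9.5e-04) and rho = 0.77 (adjusted p = 0.0013), and r = 0.73 without the 2 farthest libraries. Sardh and Pipox had r = 0.68 (permutation adjusted p = 0.0205), rho = 0.54 (adjusted p = 0.0281) and 0.51 without the 2 farthest. Chdh had r = -0.40 with Sardh and -0.33 with Dmgdh, and none of its 4 pairs passed. Control CT8 a was among the farthest libraries in each of the 3 called pairs, and without it their r was 0.79, 0.76 and 0.57. The permutations test only whether the genes of a pair vary independently. No share over other pairs of liver genes stands beside these calls, so they are not shown to be particular to these genes.

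By the level of the mitochondrial gene mt-Nd6, the liver libraries fell into 21 with low and 15 with high values, separated by a gap of 1.80 log2; 13 of the low and 5 of the high libraries were MCD. Within the low and the high libraries respectively, the diet effect was -0.88 and -1.02 for Aldh7a1, -1.55 and -1.82 for Pipox and -0.54 and -0.65 for Sardh, each called. For Chdh it was -0.31 and -0.26, not called in either (adjusted p = 0.0718 and 0.169). The Chdh rhythm on MCD was called within both, with ranges of 0.77 and 0.99 log2 (adjusted p = 0.0108 and 0.0329), while its difference between the diets was called in neither (adjusted p = 0.293 and 0.282). Within the low and high libraries the 3 called correlations were 0.84 and 0.87 for Dmgdh and Sardh, 0.79 and 0.89 for Aldh7a1 and Pipox, and 0.71 and 0.64 for Sardh and Pipox.

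Dmgdh and Chdh each start next to another gene transcribed in the opposite direction, and the exon-free sequence between each pair is shown because both genes of a pair could be read in the same libraries. Dmgdh lies 130 bases from Bhmt2, which encodes a methyltransferase related to the betaine enzyme Bhmt, and Chdh 126 bases from Il17rb, which encodes an interleukin 17 receptor subunit. These neighbours were looked at after the values were seen. The stretches are from RefSeq on GRCm38.p6, 5′ to 3′ on the plus strand, at chr13:93674303-93674432 and chr14:30008897-30008999. The first spans the whole gap, and the second is the part of the gap outside RefSeq exons, 103 of the 126 bases. They have the letters of a GC box (GGGCGG or its reverse complement) in capitals.
Dmgdh: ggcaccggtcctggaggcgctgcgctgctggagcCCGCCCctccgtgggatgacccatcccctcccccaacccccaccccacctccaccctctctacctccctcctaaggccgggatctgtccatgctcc
Chdh: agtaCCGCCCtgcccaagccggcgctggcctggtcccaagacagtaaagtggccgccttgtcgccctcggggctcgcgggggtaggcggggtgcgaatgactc
Over the 36 liver libraries, log2 levels of Dmgdh and Bhmt2 had r = 0.87 (0.90 within control and 0.82 within MCD), where the median r of Dmgdh with all 13840 genes considered was 0.04. Within each diet Bhmt2 was not the gene most like Dmgdh. Within control and within MCD, r with Dmgdh was 0.91 and 0.87 for Mmut and 0.94 and 0.88 for Gstz1. Bhmt2 went from 255 to 211 CPM. Chdh and Il17rb had r = 0.23 over all libraries, 0.76 within control and 0.64 within MCD, with Il17rb at 8.49 CPM on control and 11.7 CPM on MCD. For both neighbour pairs the values within control rest in part on control CT8 a: without it they were 0.55 for Dmgdh and Bhmt2 and 0.46 for Chdh and Il17rb. Over the other 35 libraries together r was 0.84 and 0.11. These are descriptions over libraries that share diet and time.

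Of the 5 genes, 4 have entries in the RefSeq promoter table, which holds 250 bases before each start. An E-box (CACGTG), a D-box (TTATGTAA), the core AGGTCA bound by ROR factors, an amino acid response element (TGATGNAAT) and a GC box (GGGCGG) were searched on both strands. Of 32536 promoters, 6.04%, 0.81%, 14.04%, 0.81% and 32.97% hold them in that order. Chdh has promoters 1, 2 and 3 in that table: promoter 1 matched the GC box only, and promoters 2 and 3 matched none of these motifs. Dmgdh matched the GC box only. Sardh matched AGGTCA at 204 bases before the start that RefSeq gives, which lies inside the gene as GENCODE places it, and Pipox matched none. The letters say nothing about whether a factor binds.

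**Figure D4:**
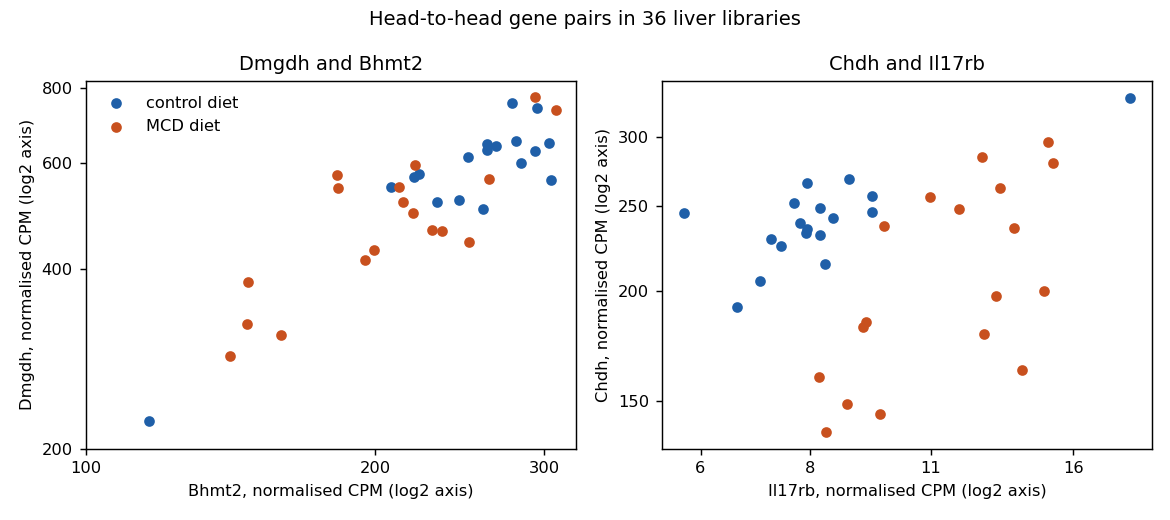
Levels of Dmgdh against Bhmt2 and of Chdh against Il17rb (log axes, TMM-normalised CPM) in the 36 liver libraries, 1 point per library, colour for diet. Dmgdh and Bhmt2 lie along 1 line (r = 0.87), with control CT8 a as the lowest point of both, and in the plot of Chdh and Il17rb control CT8 a is the highest point of both and sets much of the r of 0.76 within control.

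The genes most like each of the 5 over the 36 liver libraries, by Pearson r of log2 levels, are given as a description without a test, since both genes share each library and diet. For Aldh7a1 these were Trap1 (r = 0.95), Tmem205 (0.95) and Srd5a1 (0.94), and for Pipox Ugt2a3 (0.98), Dpys (0.97) and Tfr2 (0.97). Both diets are pooled in these values: within MCD alone r was 0.39, 0.73 and 0.66 for the 3 genes nearest to Aldh7a1 and 0.82, 0.84 and 0.70 for those nearest to Pipox, and within control 0.90, 0.67 and 0.94 and 0.87, 0.75 and 0.80. Dmgdh had Bhmt2 (0.87), Mmut (0.85) and Gstz1 (0.85), and Sardh had Gm49011 (0.93), Aldh1l1 (0.92) and Hrg (0.92). Aldh1l1, which encodes a folate enzyme of the cytosol, is thus the nearest well-known gene to Sardh, and its own level went from 1293 to 705 CPM. The genes nearest to Chdh were Cenpv (0.80), Gng12 (0.78) and Ndfip2 (0.77), whose r within control alone was 0.30, 0.52 and 0.23 and within MCD 0.86, 0.83 and 0.89.

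Genes that supply or use the pathway were read in 7 lists, whose medians stand beside a median of 0.02 over all genes and whose counts stand beside the 46.6% of all liver genes called, 25.3% higher and 21.2% lower. With 3 to 16 genes tested in a list, a count near these shares is no result about the list, as with 3 of 7 flavin genes. Of the choline and betaine transporters, 8 of 10 were tested, 2 rose, 3 fell and 3 were not called (median 0.01). The choline transporter-like genes Slc44a1 (-0.66 ± 0.06) and Slc44a3 (-0.59 ± 0.08) fell, and Flvcr1, a choline carrier, rose (0.34 ± 0.09). Of 3 genes of methyl transfer, 2 fell (median -0.42): Gnmt, which makes sarcosine from glycine, by -1.07 ± 0.14, and Bhmt2 by -0.27 ± 0.10. Bhmt, the enzyme that joins betaine to the rest of the pathway, had -0.42 (adjusted p = 0.113), and -0.52 and called (adjusted p = 0.0214) without control CT8 a.

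The next lists cover the transfer of electrons and carbon from Dmgdh and Sardh. Of 7 genes of flavin electron transfer and FAD supply, 3 fell and 4 were not called (median -0.12); the largest differences were Etfrf1 (-0.31), Etfb (-0.29) and Etfdh (-0.17). All 6 mitochondrial folate genes were called, 3 higher and 3 lower (median 0.60). Mthfd1l rose by 2.21 ± 0.22, Aldh1l2 by 2.12 ± 0.20 and Mthfd2 by 1.34 ± 0.20, each an enzyme of mitochondrial one-carbon units.

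Of 8 genes of the glycine list, which holds genes that cleave or use glycine and also Agxt, 6 fell and 2 were not called (median -0.25), led by Glyat (-0.54), which joins glycine to acyl groups, Agxt (-0.51), which makes glycine from glyoxylate, and Amt (-0.33) of the glycine cleavage system. Of 8 genes of lysine and pipecolate breakdown, the pathway that Aldh7a1 and Pipox also belong to, 5 fell and 3 were not called (median -0.47): Aass by -0.80 ± 0.11, Aadat by -0.78 ± 0.10 and Dhtkd1 by -0.71 ± 0.11 lead them. Of 16 other aldehyde dehydrogenases tested out of 17, 6 rose, 7 fell and 3 were not called (median 0.11). Aldh18a1 (1.20 ± 0.24) and Aldh1b1 (1.18 ± 0.19) rose, and Aldh1l1 fell by -0.88 ± 0.12, so that the fall of Aldh7a1 was not shared by its family as a whole.

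With library totals these counts changed: transporters 3 higher and 2 lower, methyl transfer 0 and 1, flavin genes 4 and 0, folate genes 3 and 1, glycine genes 2 and 1, lysine genes 1 and 4, and other aldehyde dehydrogenases 9 and 4. Etfrf1 then had -0.06, Etfb -0.03, Etfdh 0.08, Bhmt2 -0.02, Agxt -0.25 and Amt -0.07, and none of these 6 was called. Without control CT8 a the counts of higher and lower were 1 and 3 for transporters, 0 and 3 for methyl transfer, 0 and 4 for flavin genes, 1 and 6 for glycine genes and 7 and 7 for other aldehyde dehydrogenases, with no change in the folate and lysine counts. In the SCN, none of the 42 genes of these lists that were tested was called for diet by edgeR, DESeq2 or limma-voom, and 3 had an unadjusted p below 0.05.

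Some marker genes were called for diet in liver, where 25.3% of all genes were called higher and 21.2% lower. Of 7 macrophage markers 6 were higher on MCD, with sums of 156 to 349 CPM on control and 205 to 381 CPM on MCD, and of 5 liver endothelium markers 3 were higher (214 to 304 and 227 to 326 CPM). Of 7 hepatocyte markers 1 was higher and 4 were lower, with sums of 78412 to 122075 and 58016 to 122186 CPM, and of 6 periportal markers 4 were lower (3250 to 6881 and 2575 to 5786 CPM). Of 6 pericentral markers 2 were lower, and 2 of 6 stellate cell markers tested and 1 of 5 cholangiocyte markers were higher, counts near those shares. On library totals these calls shifted: 2 hepatocyte markers were higher and 2 lower, 1 periportal marker was lower, 2 pericentral markers were higher and 2 lower, and all 7 macrophage, 5 endothelium and 6 stellate cell markers were higher. Control CT8 a had the lowest sum of pericentral markers among controls, 2026 CPM, and the highest of stellate cell markers, 602 CPM. The part of these markers in the differences above was not tested. In the SCN all 8 SCN neuron markers were tested (sums of 1779 to 4434 CPM) and none was called for diet. The 1 marker called in the SCN was Glul, of the pericentral list and also an astrocyte gene, at 0.25 log2 (adjusted p = 0.015). There, 2 of 7 hepatocyte markers are listed, with sums of 2.2 to 27.3 CPM.

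Other genes overlap exons of 4 of the 5 on the opposite strand. The largest overlap was 9.47% of the exonic bases of Chdh with Cacna1d, which had 1.91 CPM on control and 1.08 CPM on MCD in liver. Aldh7a1 shares 5.79% with Phax (15.0 and 19.6 CPM in liver, 69.9 and 71.4 CPM in the SCN). Dmgdh shares 6.3% with AW495222 (0.125 CPM on control) and Sardh 3.46% with Sardhos (0.157 CPM on control). The libraries were made with a stranded kit, but whether the counting used strand is not given in the sources used here.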

How the data were processed

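The authors deposited raw read counts per gene, 1 table per tissue, from poly(A) RNA libraries made with a stranded kit; per the submitters' processing notes Trimmomatic, HISAT2, StringTie and DESeq2 were used, with build GRCm39. Columns were matched to samples by name, 0 columns were left over, and in each table the 2 columns headed alike were called control CT8 a and b. Counts were tested with edgeR 4.0.16 (TMM, filterByExpr with a minimum count of 10, robust quasi-likelihood F test) in R 4.3.3, with 12 groups of diet and time plus sex per tissue and Benjamini-Hochberg adjustment. Alternatives were DESeq2 1.42.0, limma-voom (limma 3.58.1), other scalings and filters, a replicate block, and leaving out libraries; the scripts were tested on simulated data. Totals of 23.3 to 86.7 M counts (M, 1e+06) set the precision. The mice are separate animals per the series' design text. Positions come from GENCODE M21, which matched 23818 of the 24091 gene IDs, and promoters from RefSeq, both on GRCm38. Log2 levels used a prior count of 2. Exon-bin files were not used, since their columns could not be tied to samples.

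The members and gene lists were chosen with earlier results of these data known. Beside the 5 members, the text names up to 3 called genes of each list with the largest average liver diet effect, and the 3 genes most like each member over 13840 genes of at least 1 CPM on average. Bhmt, the neighbours, the overlapping genes and mt-Nd6 were named after their values were seen.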

Additional observations from a re-analysis of the deposited data

Results flagged for a closer look

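The diet effect differed between the tissues, tested as the liver effect minus the SCN effect, for Aldh7a1 (-0.94 log2), Pipox (-1.40 log2) and Sardh (-0.33 log2). The first 2 were called when any of the 72 libraries was left out, and the Sardh difference was not. The diet effect on liver Chdh differed between the sexes, by 0.52 log2 as females minus males. That call was lost in 3 of 44 alternatives, library totals among them. The 24 h component of liver Chdh differed between the diets, with a range of 0.86 log2 for MCD minus control. This rhythm difference lost its call in 9 of 49 alternatives, library totals and 4 single libraries left out among them.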

How the results depend on the processing

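Aldh7a1, Pipox and Sardh kept the sign and the call of their average liver diet effect in each of 49 alternatives; that of Sardh ran from -0.66 to -0.31, the latter on library totals. The 1 reversal was the average liver diet effect of Chdh, 0.021 on library totals; it lost its call without replicate 1 or 2 and within either kind of library. Counts are of members called. Single times in liver gave 15, and 8 to 18 with libraries or a replicate number left out. Unequal diet effects gave 0, 1 with DESeq2 and 0 to 1 with a library left out. Liver rhythm gave 0 on control (0 to 1 with a library left out) and 3 on MCD (0 to 4, and 1 within the low and 1 within the high libraries). The rhythm difference gave 1, 0 on library totals, 0 within either kind and 0 to 1 with libraries left out. The sex difference of the diet effect gave 1, 0 on library totals and 0 to 1 with libraries left out. SCN rhythm gave 2 on control (1 with no term for sex, 0 to 2 with libraries left out) and 2 on MCD (0 to 2). The tissue difference gave 3 (2 to 3). Where a replicate number was left out, 11 (numbers 1 and 2, since control CT8 a and b have none) or 12 (number 3) of the 36 libraries of each tissue were lost; the cause of the other changes was not tested. Over all genes, the SCN diet count of 10 was 48 with DESeq2, 20 with limma-voom, 6 with no term for sex and 0 to 14 without 1 replicate number. The liver count of unequal diet effects, 184, was 1341 with DESeq2, and that of rhythm differences, 986, was 2016 with DESeq2. Over 16 pairs of same-numbered libraries of the 2 diets, the correlation of deviations ran from 0.07 to 0.43 in liver and from -0.09 to 0.28 in the SCN, and with sex removed from -0.21 to 0.29 and from -0.17 to 0.25. Not every pair was over 0.1, so the numbers were not taken as pairs. With the replicate block, 9368 liver genes were called for diet in place of 9426, Dmgdh was called (-0.34), and SCN rhythm on control gave 1.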
